A study of Oryza sativa Indica Group and Oryza sativa Japonica Group with 20 samples.

Results

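Narrow H3K4me3 regions that carry no called H3K27me3 were examined in rice meiocytes. In each cultivar the peaks of both H3K4me3 replicates on chromosomes 1 to 12 were merged, and merged regions holding a peak of each replicate were kept as reproducible regions. The members were selected on width and on called peaks: they were the reproducible regions under 600 bp wide that overlapped no peak of either H3K27me3 library of the same cultivar. They numbered 3427 of 29541 reproducible regions in IR64 (11.6%, 95% Wilson interval 11.2 to 11.97) and 2623 of 27224 in Azucena (9.63%, 9.29 to 9.99), or 6050 of 56765 in all. Since called peaks of these libraries chose them, widths and folds below are descriptions. Intervals here cover counting error only.

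H3K4me3 is trimethylation of lysine 4 of histone H3, a modification laid down around the start of transcribed genes, where it usually spreads over the first nucleosomes of the gene body. H3K27me3, trimethylation of lysine 27 of the same histone, is written by Polycomb complexes and marks silent developmental genes. In meiotic prophase, H3K4me3 is also studied because recombination in several organisms starts at or near sites that carry it. The width of an H3K4me3 region is a property often compared between genes, and a short region may stand alone or beside a broader one.

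The series holds 20 samples in 10 groups of 2, and this account rests on the 8 CUT&Tag libraries of meiocytes. All groups used were wild type: IR64 and Azucena meiocytes with an H3K4me3 antibody (Abcam) and with an H3K27me3 antibody (Diagenode), with 2 libraries in each of these 4 groups. Per the labels' protocols, spikelets with cells in prophase of the first meiotic division were dissected, and clusters of meiocytes were drawn from the anthers with glass capillaries. CUT&Tag cuts and tags chromatin with a transposase that an antibody has brought to a modification, and each library therefore averages over many cells. The labels do not say that replicates came from separate plants, so the spread between replicates may be technical. The lists give positions without genes, so the cell type was not set against marker genes here.

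The H3K4me3 libraries held 12.41 and 13.71 M uniquely aligned reads (units of 1000000) in IR64 and 9.22 and 11.77 M in Azucena, in the authors' deposited table. The H3K27me3 libraries held 47.91 and 9.0 M reads for IR64, and 10.11 and 10.28 M reads for Azucena. The lowest local background recovered from the H3K27me3 lists was 2.40 and 1.85 reads in IR64 against 6.08 and 5.90 reads in Azucena. Absence of H3K27me3 means here that no peak was called, and it was read at a lower background coverage in IR64. The coordinates of each cultivar's lists belong to its own assembly, whose build was not given in the sources used here, so no region was matched between the cultivars.

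Of the narrow reproducible regions, 719 of 4146 in IR64 (17.3%, 16.2 to 18.5) and 897 of 3520 in Azucena (25.5%, 24.1 to 26.9) overlapped H3K27me3 and were set aside. Among wider reproducible regions, of 600 bp or more, the overlap was 16.3% in IR64 and 21.6% in Azucena. The wider regions without H3K27me3, 21263 in IR64 and 18589 in Azucena, served as the comparison for the members.

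Members were short by rule but were spread over the allowed range. Their width ran from 279 to 599 bp in IR64, with its median at 495 bp and quartiles at 427 and 547 bp. In Azucena it ran from 290 to 599 bp, with a median of 500 bp and quartiles at 440 and 551.5 bp. The narrowest peaks of the 4 lists were 265 to 285 bp wide, so the lower end of this range is also the lower end of what was called. Members covered 1655 kb in IR64 and 1287 kb in Azucena, which was 5.01% and 4.32% of the bases in reproducible regions.

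**Figure D1:**
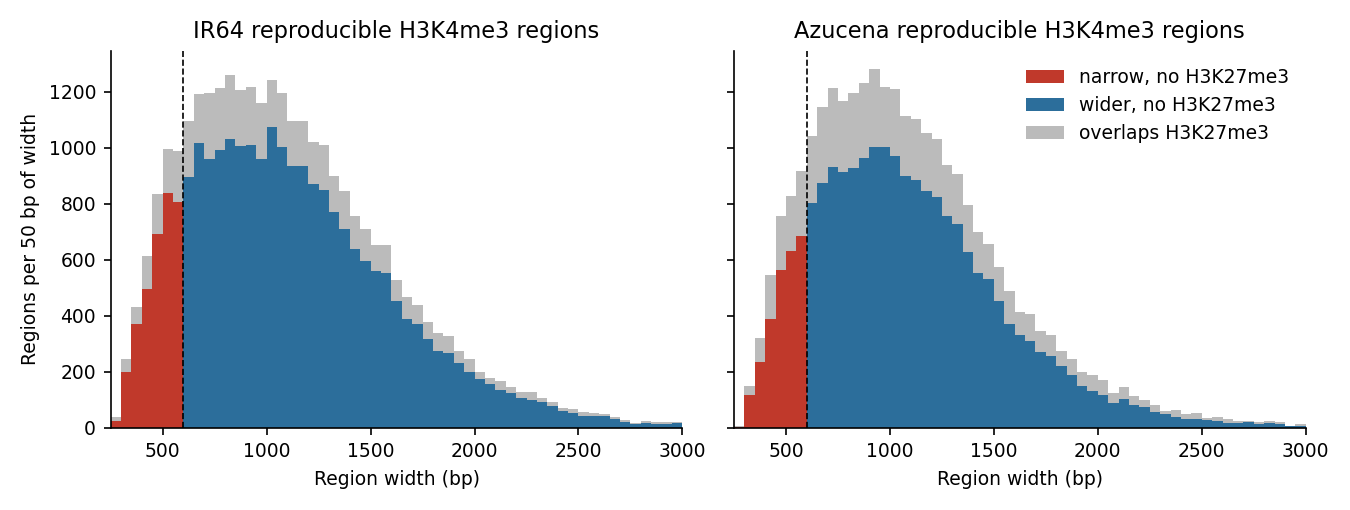
Number of reproducible H3K4me3 regions per 50 bp of width (y axis) against width in bp up to 3000 bp (x axis), in IR64 and Azucena, split into narrow and wider regions without H3K27me3 and regions overlapping H3K27me3. The dashed line marks 600 bp, and in both cultivars the members form the lower shoulder of a single distribution, with no dip at the limit.

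The width limit cut through a continuous distribution. In IR64, 324 members were 580 bp up to the limit in width, with a median fold of 3.11 in replicate 1 and 3.00 in replicate 2. The 348 regions of 600 bp up to 620 bp without H3K27me3 had medians of 3.16 and 3.05. In Azucena the 294 members just inside had medians of 3.36 and 3.26, and the 286 regions just outside had 3.43 and 3.36. Regions on both sides of the limit were therefore close in fold. Of single regions at the limit, chr1:1581956-1582554 in IR64, 599 bp wide, had folds of 3.10 and 3.12, and chr1:12702639-12703238, 600 bp wide and outside, had 2.69 and 2.98. In Azucena chr1:41796029-41796627, 599 bp wide, had folds of 3.37 and 3.23, and chr1:10795042-10795641, at 600 bp, had 3.06 and 2.40.

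The fold is the authors' enrichment at the peak summit over the local background of the same library. Members were weaker than wider regions in all 4 libraries. In IR64 the median fold of the members was 3.00 in replicate 1 and 2.93 in replicate 2, against 3.80 and 3.62 in wider regions without H3K27me3. In Azucena it was 3.16 and 3.14, against 3.96 and 3.94. The ratio of the medians was 0.800 ± 0.0153 for IR64 and, for Azucena, 0.797 ± 0.000221 (SD, n = 2 each). In the peaks of each library alone, where no partner was asked for, the ratio was 0.721 and 0.748 in IR64 and 0.743 and 0.726 in Azucena. Width and fold were called from the same reads, so these ratios are given without a test.

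The members' folds overlapped broadly with those of wider regions. The middle 50% of members lay between 2.60 and 3.60 in IR64 replicate 1, and that of wider regions lay between 3.12 and 4.65. In IR64 671 members (19.6%) and in Azucena 465 members (17.7%) had a mean fold above the median of wider regions without H3K27me3. A fold of at least 4 in both replicates was reached by 258 IR64 members (7.53%) and 262 Azucena members (9.99%), against 29.7% and 39.0% of wider regions. The lowest fold of a member was 1.58 in IR64 and 1.72 in Azucena.

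**Figure D2:**
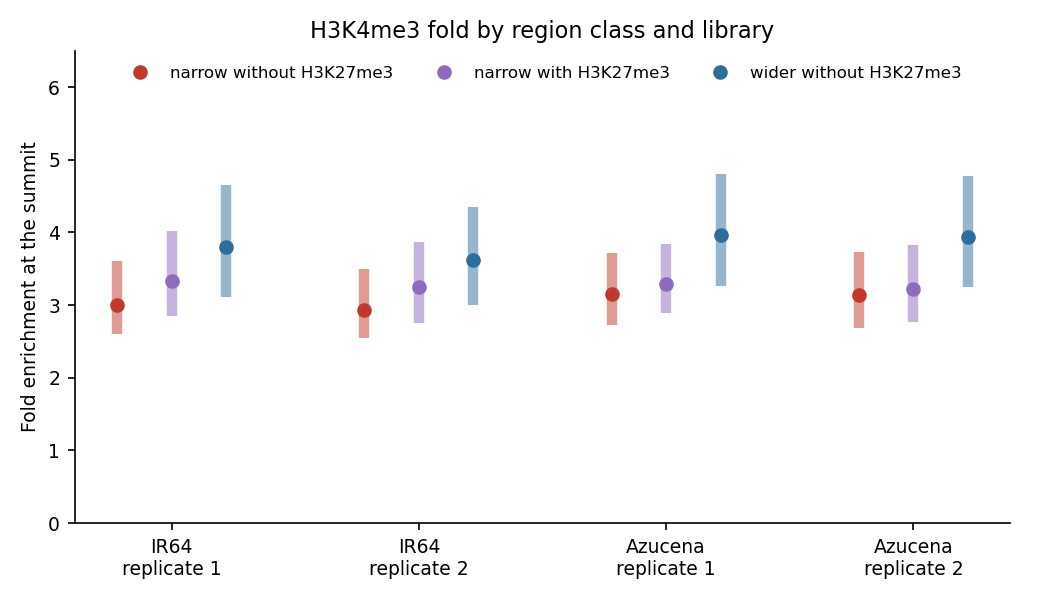
Median (points) and interquartile range (bars) of the authors' fold at the summit (y axis) in each of the 4 H3K4me3 libraries (x axis), for narrow regions without and with H3K27me3 and wider regions without it. In each library the members had the lowest median, from 2.93 to 3.16, and wider regions the highest, from 3.62 to 3.96, while the ranges of the classes overlapped.

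The reads behind these folds were few. The summit coverage recovered from fold and p had a median of 38 and 34 reads over members in IR64 and 33 and 34 reads in Azucena. Wider regions without H3K27me3 had 50 and 43 reads in IR64 and 43 and 45 in Azucena. The local background was near that of wider regions, at 11.6 and 10.7 reads over members against 11.9 and 10.8 over wider regions in IR64, and 9.45 and 9.87 against 9.77 and 10.2 in Azucena. The lower fold of members thus went with fewer reads at the summit at a like background.

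Narrow regions that did overlap H3K27me3 stood between the members and the wider regions in fold. Their median was 3.33 and 3.25 in IR64 and 3.30 and 3.22 in Azucena. Their summits nevertheless held fewer reads than those of members, 34 and 30 in IR64 and 27 and 28 in Azucena. Their median background was 7.71 and 7.01 reads in IR64 and 6.28 and 6.60 in Azucena, at or just above the lowest background of each library. The higher fold of this class therefore went with a lower background and not with more summit reads.

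Within the members, width and fold were hardly related. The median fold of IR64 members went from 2.95 in replicate 1 and 2.91 in replicate 2 at widths under 400 bp (596 members) to 3.07 and 2.99 at 500 bp or more (1645 members). In Azucena it went from 2.98 and 3.02 (357 members) to 3.21 and 3.21 (1316 members). Across members, Spearman's rho between width and mean fold was 0.0889 in IR64 (3427 regions) and 0.124 in Azucena (2623 regions). These regions share libraries, and both measures come from the same reads.

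The strongest members reached folds well above the median. In IR64 chr10:25671003-25671569, 567 bp wide, had folds of 9.76 and 9.37, with 84 and 74 reads at the summit, and its summits in the 2 replicates lay 2 bp apart. It was followed by chr2:15156093-15156593 with folds of 7.35 and 7.74, and chr1:23272451-23272965 with 7.12 and 7.62. Next came chr8:27298750-27299263, which was less even, at 8.50 and 6.12, and chr10:10606699-10607257 at 7.70 and 6.75. All 5 lay 4456 bp or more from the nearest wider region, and the background around each was at the lowest level of its library.

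In Azucena the strongest member was chr8:14913006-14913558, 553 bp wide, with folds of 8.08 and 7.33 from 61 and 65 summit reads. The next were chr11:2189729-2190323 with 8.07 and 6.33, chr2:25847571-25848102 with 7.55 and 6.32, and chr4:5240829-5241422 with 6.95 and 6.08. The fifth, chr1:16161644-16162241, had folds of 6.87 and 5.94. These regions lay 2412 to 16298 bp from the nearest wider region. What genes lie at these positions was not analysed here.

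The question whether a narrow peak is found again was put to the other replicate, which played no part in calling the peak narrow. Peaks of 1 library under 600 bp and without H3K27me3 were the narrow peaks of that library, 9267 and 9522 in IR64 and 6925 and 7026 in Azucena. Of all H3K4me3 peaks, 87.3% and 91.0% in IR64 and 91.9% and 89.3% in Azucena overlapped a peak of the other replicate. Of the narrow peaks, 66.2% (65.3 to 67.2) and 75.3% (74.5 to 76.2) did so in IR64. In Azucena the shares were 77.3% (76.3 to 78.3) and 70.6% (69.5 to 71.6). Wider peaks without H3K27me3 were detected at 97.0% and 98.5% in IR64 and at 98.6% and 97.9% in Azucena.

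Narrow peaks were detected less often in 4 of 4 libraries, and the shares of the 2 width classes did not overlap. The difference was −25.6 ± 4.26 percentage points (SD, n = 4), with means of 72.4% and 98.0%. An exact permutation of the signs of the 4 differences gave a two-sided p of 0.125, which is the smallest that 4 libraries allow. The 4 differences come from 2 replicate pairs, each scored in both directions on the same overlaps, so they are not independent and this p is too small. With the pair as the unit the differences were −26.9 points in IR64 and −24.3 points in Azucena, with an exact permutation p of 0.5, below which 2 pairs cannot go. In IR64 the lower share was that of replicate 1, and in Azucena that of replicate 2.

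Detection followed the fold of the peak. Among narrow peaks of fold under 2.5, 47.6% and 62.3% were detected in IR64 and 58.0% and 50.7% in Azucena. Among those of fold 5 or more the shares were 99.2% and 98.2% in IR64 and 98.9% and 98.7% in Azucena. At like folds wider peaks were still detected more often, with 79.0% and 90.9% in IR64 and 85.4% and 83.6% in Azucena under 2.5. At a fold of 5 or more the wider peaks stood at 99.9% to 100%, above the narrow peaks in 4 of 4 libraries. Narrow peaks without a partner had median folds of 2.53 in both IR64 libraries and 2.63 and 2.64 in Azucena, against 2.97 and 2.87 and 3.14 and 3.09 for those with a partner.

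**Figure D3:**
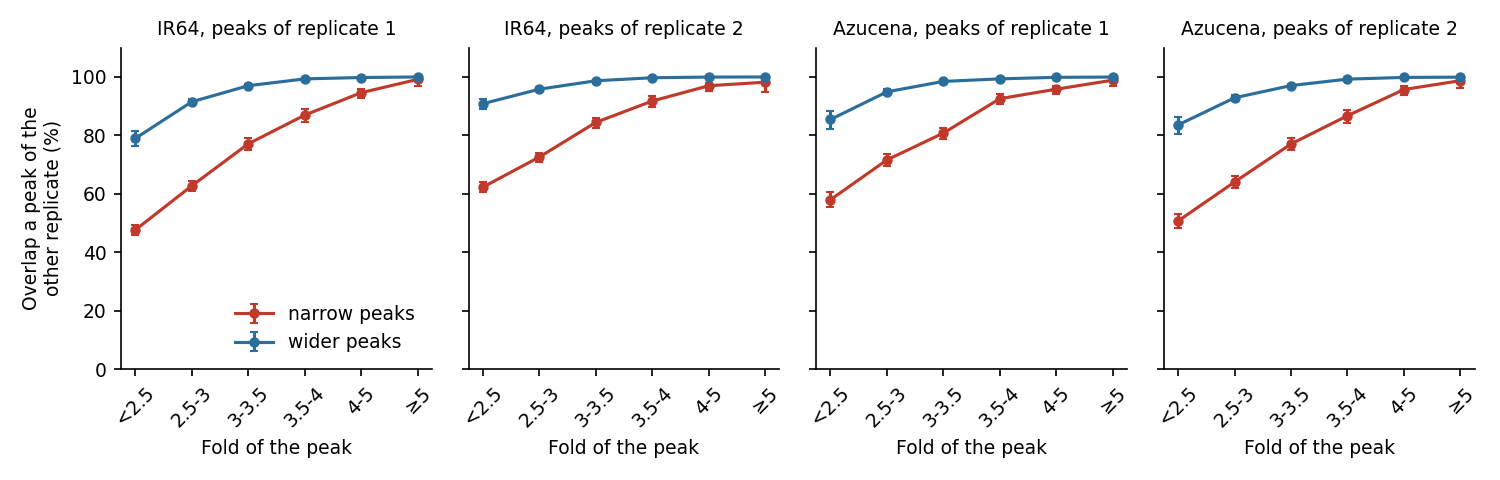
Share of peaks without H3K27me3 that overlapped a peak of the other replicate (y axis, %) by the fold of the peak (x axis), for narrow peaks under 600 bp and wider peaks, in the 4 H3K4me3 libraries, with 95% Wilson intervals. Narrow peaks ran below wider peaks at low fold, for example 47.6% against 79.0% under 2.5 in IR64 replicate 1, and they were still lower at a fold of 5 or more, at 98.2% to 99.2% against 99.9% to 100%.

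Most narrow peaks of a single library did not become members. Only 36.0% to 37.9% of the narrow peaks of each library were held by a member. A further 29.2% and 39.3% in IR64 and 39.4% and 33.2% in Azucena fell into a merged region of 600 bp or more once joined with other peaks. The rest, 33.8% and 24.7% in IR64 and 22.7% and 29.4% in Azucena, had no partner, apart from 1 or 2 peaks per library in narrow regions with H3K27me3. Narrow regions and wider regions thus took up like shares of the narrow peaks.

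Where a member was found, the replicates gave folds near each other, though less so than in wider regions. The rule sets this in part. Regions strong in 1 replicate and uncalled in the other were left out, among members and wider regions alike. The median absolute log2 ratio of the 2 folds was 0.18 in IR64 and 0.17 in Azucena, near the 0.17 and 0.15 of wider regions. Folds differed by more than 1.5-fold in 2.83% and 2.74% of members, against 1.91% and 1.45% of wider regions. At a like mean fold, from 3.5 to 4, the median ratio was 0.211 in IR64 members against 0.168 in wider regions. In Azucena it was 0.187 against 0.153. The share above 1.5-fold in this class was 4.61% against 2.34% in IR64 and 4.10% against 1.45% in Azucena. At a mean fold of 2.5 to 3, with 1117 IR64 and 796 Azucena members, the classes lay closer. The median ratio there was 0.169 against 0.153 in IR64 and 0.163 against 0.150 in Azucena. The share above 1.5-fold was 1.25% against 1.03% and 1.76% against 1.27%. Spearman's rho between the replicates' folds was 0.679 and 0.667 across members and 0.812 and 0.823 across wider regions. The interquartile range of fold was larger in wider regions, and its part in the rho was not tested.

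The position of the summit was also close, which the rule sets in part. The merged region of both replicates had to be under 600 bp, and this limits how far apart summits and edges of a member can lie. The summits of the 2 replicates lay a median of 71 bp apart in IR64 members and 72 bp apart in Azucena members. In wider regions the offsets were 122 and 113 bp. As a share of region width, the order turned: 15.0% and 14.8% in members against 11.1% and 10.4% in wider regions. The bases shared by both peaks were a median of 77.3% and 79.9% of their union in members, and 79.5% and 80.6% in wider regions. These orders did not hold throughout at a like mean fold. From 2.5 to 3 the offset share was 17.7% in members against 17.6% in IR64 and 17.3% against 17.8% in Azucena. From 3.5 to 4 it was 10.6% against 10.7% and 12.3% against 10.9%. The shared bases were higher in members, at 74.2% against 65.1% and 75.2% against 64.0% from 2.5 to 3. From 3.5 to 4 they were 82.1% against 81.3% and 84.8% against 80.7%.

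A few members were uneven. In IR64 chr7:19950693-19951225 had folds of 3.96 and 1.98 from 76 and 34 summit reads, chr9:6349702-6350053 had 5.86 and 3.00, and chr1:7210768-7211221 had 4.65 and 2.48. All 3 were higher in replicate 1. In Azucena chr3:11283697-11284146 had 2.28 and 4.26 and chr5:27612843-27613416 had 1.96 and 3.43, higher in replicate 2, and chr2:23769533-23770082 had 3.94 and 2.13, higher in replicate 1. Even in these, the ratio stayed under 2-fold, which the demand for a call in both replicates sets in part.

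In the median over all of them, members lay nearer to a wider H3K4me3 region than wider regions lay to each other. Gaps and widths rest on the same peak calls, so the gaps are described without a test. The gap between the facing edges had a median of 3304 bp for IR64 members and 3626 bp for Azucena members. From a wider region without H3K27me3 to the next wider region it was 4972 and 5341 bp, and from a narrow region with H3K27me3 4918 and 5071 bp. A wider region stood within 1000 bp of 638 IR64 members (18.6%, 17.3 to 20.0) and of 415 Azucena members (15.8%, 14.5 to 17.3). The share was 8.48% and 6.12% for wider regions and 13.5% and 9.70% for narrow regions with H3K27me3.

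**Figure D4:**
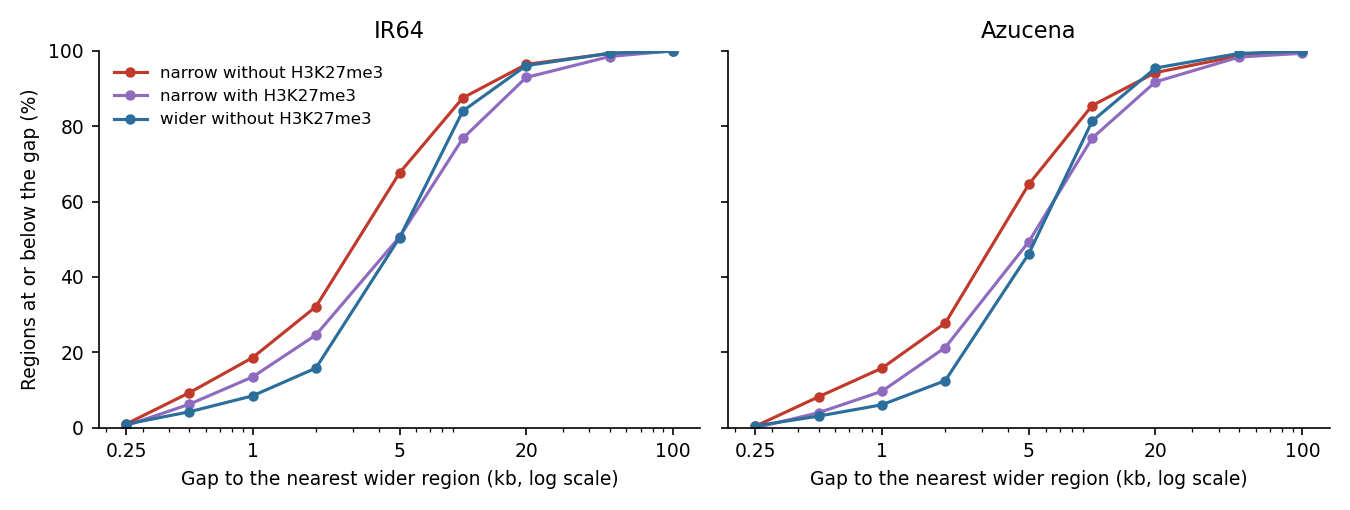
Cumulative share of regions (y axis, %) by the gap to the nearest wider H3K4me3 region (x axis, kb, log scale) for members, narrow regions with H3K27me3 and wider regions without it, in both cultivars. At 1 kb the members stood at 18.6% in IR64 and 15.8% in Azucena, above the other classes, and the curves lay closer by 20 kb.

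The same order held in each library taken alone. A wider peak stood within 1000 bp of 19.1% of the narrow peaks in both IR64 libraries, and of 14.9% and 16.5% in those of Azucena. Of wider peaks, 7.07% and 7.15% in IR64 and 4.94% and 4.82% in Azucena did. The lowest narrow share of a cultivar was above its highest wider share. These peaks were called on the same reads, and how a caller breaks a broad signal into pieces was not tested.

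A position between a pair of wider regions, each within 1000 bp, was rare in members and in wider regions alike. It was held by 11 of 3427 IR64 members and 2 of 2623 Azucena members. Of wider regions without H3K27me3, 20 of 21263 in IR64 and 8 of 18589 in Azucena were so placed. Within 5 kb on both sides the share was higher in members, at 14.9% in IR64 and 12.9% in Azucena. For wider regions without H3K27me3 it was 8.005% and 6.86%. At the other end, 124 IR64 members (3.62%) and 152 Azucena members (5.79%) lay more than 20 kb from any wider region, against 3.96% and 4.58% of wider regions. Farthest were chr11:18269403-18269915 in IR64, 150289 bp from a wider region, with folds of 3.10 and 3.37, and chr11:28755007-28755308 in Azucena, 181902 bp away, with folds of 2.61 and 2.37. The next were chr4:8395787-8396239 and chr11:18321962-18322475 in IR64, at 115514 and 115394 bp, and chr10:13818254-13818724 and chr5:15841676-15842132 in Azucena, at 168906 and 156529 bp.

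Members beyond 5 kb from a wider region had a higher fold but fewer summit reads than those nearer. In IR64 the median fold of replicate 1 was 2.89 within 1000 bp, 2.92 from there to 5 kb, 3.33 up to 20 kb and 3.56 beyond. The summit reads of the same members were 40, 42, 33 and 30, and the local background was 12.9, 13.5, 7.72 and 7.71 reads. Isolated members thus had the higher fold but fewer reads, over a background at the lowest level of the library. Azucena replicate 1 showed the same order, with folds of 2.97, 2.98, 3.43 and 3.64, summit reads of 35, 36, 28 and 26, and backgrounds of 10.8, 11.3, 6.28 and 6.28. What part of the fold difference the background accounts for was not tested.

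The nearest wider neighbour was usually the stronger of the pair. It had the higher mean fold for 68.5% of the IR64 members within 1000 bp and for 76.6% of those beyond 20 kb, and for 70.4% and 75.7% in Azucena. Members were the weaker class in any case. Only 19.6% in IR64 and 17.7% in Azucena had a mean fold above the median of wider regions without H3K27me3. The median mean fold of the neighbours was 3.27 and 3.42 within 1000 bp, and 4.41 and 4.51 beyond 20 kb. Over all wider regions it was 3.75 and 3.92. The neighbour within 1000 bp was itself rather narrow, its median width being 989 bp (IR64) and 954 bp (Azucena), where all wider regions had 1132 and 1101 bp. Beyond 20 kb the median width was 1227.5 bp in IR64, but in Azucena it was 970 bp, near that of close neighbours. The neighbour overlapped H3K27me3 in 7.52% and 12.3% of cases within 1000 bp and in 21.0% and 26.3% beyond 20 kb, against 16.3% and 21.6% of all wider regions. The rule that a member carries no H3K27me3 bears on its close neighbours too.

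Although no member overlapped H3K27me3, some lay close to it. An H3K27me3 peak stood within 1000 bp of 157 IR64 members (4.58%) and 142 Azucena members (5.41%), and of 2.33% and 3.79% of wider regions without H3K27me3. The median gap to the nearest H3K27me3 peak was 13650 bp for IR64 members and 9927 bp for Azucena members, where more H3K27me3 peaks were called. Members were therefore not all far from the repressive mark.

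The region nearest to a member was most often a wider one. The nearest reproducible region of a member was another member in 517 cases in IR64 (15.1%) and 294 in Azucena (11.2%), above the 11.6% and 9.63% that members made up of all regions. For wider regions without H3K27me3 the nearest was a member in 13.8% and 11.8%. The nearest region of a member was a wider region without H3K27me3 in 73.2% and 71.2%, near the 72.0% and 68.3% that these made up of all regions. The longest run of members with no other region between them was 5 in IR64 and 4 in Azucena.

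The chromosomes were then divided into bins of 1 Mb, 383 in IR64 and 375 in Azucena, ranked by their number of reproducible H3K4me3 regions. Members were counted in this ranking too. The sparsest quintile of bins held 9 to 46 regions per bin in IR64 and 8 to 44 in Azucena, and the densest 105 to 137 and 100 to 138. Members per bin were more numerous where regions were dense, going from 3.57 ± 2.23 (SD, 77 bins) to 14.9 ± 4.23 (76 bins) in IR64 and from 3.41 ± 2.22 to 10.9 ± 4.29 (75 bins each) in Azucena.

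As a share of the regions, members went through the quintiles as follows. From the sparsest to the densest quintile they made up 11.4%, 11.0%, 11.6%, 10.9% and 12.8% of the regions in IR64. In Azucena they made up 10.8%, 9.25%, 8.92%, 9.66% and 10.0%. The ratio of the sparsest to the densest quintile was 0.889 in IR64 (95% interval 0.785 to 1.01) and 1.08 in Azucena (0.948 to 1.24), and both intervals held 1. When bins were ranked by wider regions alone, the ratios were 1.01 (0.895 to 1.14) and 1.25 (1.09 to 1.42). Other limits moved the intervals too, in IR64 to 0.878 (0.798 to 0.966) at a width limit of 700 bp and 0.845 (0.718 to 0.994) at a stricter q, and in Azucena to 1.18 (1.06 to 1.32) with no H3K27me3 filter.

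Narrow peaks of single libraries were a different unit and gave lower ratios. With bins ranked by the peaks of the same library, the ratio was 0.790 and 0.770 in IR64 and 0.929 and 0.932 in Azucena. With bins ranked by the peaks of the other replicate, it was 0.783 (0.729 to 0.840) and 0.828 (0.771 to 0.890) in IR64. The Azucena values under that ranking were 0.956 (0.885 to 1.03) and 0.923 (0.853 to 0.999). In IR64 single-library narrow peaks were thus a smaller share in sparse bins under both rankings, while for members the value lay on either side of 1 with the ranking and the limits used.

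Within single chromosomes the denser bins held the larger share of members on 10 of 12 in IR64 and on 6 of 12 in Azucena. Neighbouring bins share chromosome arms and are not independent.

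Fold, spacing and the share with H3K27me3 did differ between sparse and dense bins, and are described without a test. Over the quintiles, from sparse to dense, the median fold of IR64 members went from 3.33 to 2.87 in replicate 1 and from 3.25 to 2.78 in replicate 2. In Azucena it went from 3.57 to 2.96 and from 3.43 to 2.96. Wider regions without H3K27me3 showed the same order, from 4.59 to 3.51 in IR64 replicate 1 and from 4.69 to 3.65 in Azucena replicate 1. Bins were ranked by their number of regions, most of them wider, so the ranking itself sets longer gaps in sparse bins. The median gap from a member to the nearest wider region went from 7231 to 2794 bp in IR64 and from 10242.5 to 3193 bp in Azucena. For wider regions it went from 8143 to 4462 bp in IR64 and from 8690.5 to 4710 bp in Azucena, so in the sparsest quintile of Azucena the members lay farther, in the median, from a wider region than wider regions did. Within 1000 bp the order did not turn in that quintile, at 12.9% of members against 3.59% of wider regions. Of all narrow regions, those that overlapped H3K27me3 made up 25.7% in the sparsest quintile and 12.3% in the densest in IR64, and 26.6% and 19.8% in Azucena, where the middle quintile was highest at 30.8%.

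**Figure D5:**
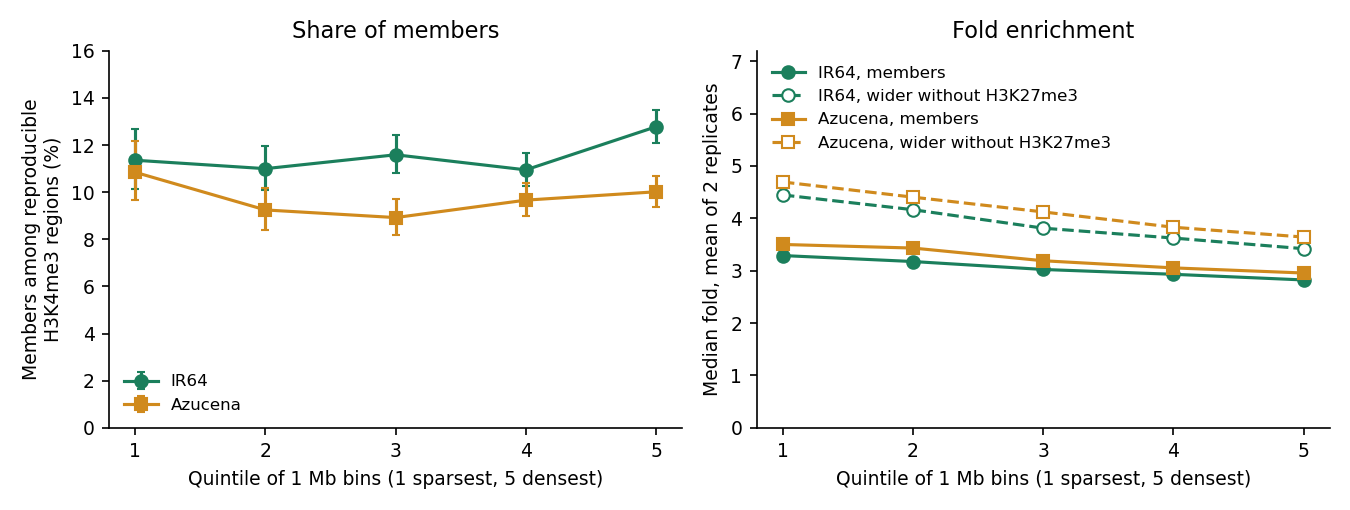
Left, members as a share of reproducible H3K4me3 regions (y axis, %, 95% Wilson intervals) by quintile of 1 Mb bins from the sparsest (1) to the densest (5) in H3K4me3 regions; right, median fold (mean of the 2 replicates) of members and of wider regions without H3K27me3 in the same quintiles. The share stayed between 10.9% and 12.8% in IR64 and between 8.92% and 10.8% in Azucena, while the fold curves were lower toward the dense bins.

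The bins with most members were dense ones. In IR64 they were chr2:35000001-36000000 with 27 members of 126 regions, chr8:28000001-29000000 with 24 of 118 and chr10:23000001-24000000 with 22 of 117. In Azucena they were chr3:34000001-35000000 with 23 of 123, chr1:41000001-42000000 with 22 of 105 and chr10:20000001-21000000 with 21 of 116. In these 6 bins members made up 18.1% to 21.4% of the regions, which the choice of the highest bins sets in part. Only 6 bins in IR64 and 5 in Azucena held no member.

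All 12 chromosomes carried members at a like share. In IR64 it ran from 10.7% (9.81 to 11.7) on chromosome 1 to 13.1% (11.8 to 14.7) on chromosome 8. In Azucena it ran from 8.84% (7.74 to 10.1) on chromosome 4 to 10.5% (9.10 to 12.04) on chromosome 11. The order of the chromosomes differed between the cultivars, and chromosome 8, highest in IR64, was among the lowest in Azucena at 9.04%.

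The cultivars were last set side by side. Narrow peaks without H3K27me3 made up 26.8% and 28.2% of the peaks of the IR64 libraries and 22.9% and 22.6% of those of Azucena, with no overlap between the groups. The means were 27.5% ± 1.02 and 22.8% ± 0.217 (SD, n = 2 each), a ratio of 1.21. With no H3K27me3 filter the means were 32.5% and 30.2%, a ratio of 1.08. Exact permutation of the libraries gave, for the filtered shares, a two-sided p of 0.333, below which 2 against 2 libraries cannot go. The median fold of members was lower in IR64, with a mean over libraries of 2.97 ± 0.0477 against 3.15 ± 0.00977 in Azucena (SD, n = 2 each), a ratio of 0.942 with the same exact p of 0.333. Wider regions without H3K27me3 stood in a like ratio, 0.938, and the summit reads of members were not lower in IR64, at 38 and 34 against 33 and 34. The detection of narrow peaks in the other replicate, 70.8% ± 6.44 for IR64 and 73.9% ± 4.75 for Azucena (SD, n = 2 each), overlapped between the groups, with an exact permutation p of 0.667. The libraries of the cultivars also differed in reads, in assembly and in H3K27me3 coverage, and the part of these in the cultivar differences was not tested.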

How the data were processed

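H3K4me3 and H3K27me3 were profiled by CUT&Tag in meiocytes, and the deposited peak list of each library was used. Per the authors, each peak carries a score, a fold (the ratio of summit to local background), and the summit's p-value and q-value on the −log10 scale. Per the submitters' processing notes, which give no roles, fastp 0.20.1, Bowtie2 and MACS2 2.1.0 were among the tools. Control library, duplicate filter and build are not given in the sources used here. The authors' deposited table gave the uniquely aligned reads and the number of peaks per library. Samples were grouped by title. The bisulfite sequencing and flag-leaf samples were not analysed here, and no region was matched to genes or sequence.

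Peaks that overlapped by at least 1 bp or touched were merged. Unplaced contigs of Azucena were left out, and so was the last incomplete 1 Mb bin of each chromosome. Summit reads and local background were recovered from fold and p under a Poisson tail with 1 added above and below in the fold. Summit reads came out whole, within 0.05, in 100% of the peaks of each library. Medians over regions were taken per library. The libraries were compared by exact permutation tests, two-sided: 16 sign patterns for detection over 4 libraries and 6 relabellings of 2 against 2 libraries between cultivars. Shares carry 95% Wilson intervals. Overlap, merging, gaps and the recovery of reads were tested on simulated data. Python 3.11.15, numpy 2.4.6, pandas 2.3.3, scipy 1.17.1 and matplotlib 3.10.9 were used.

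Members, comparisons and limits were chosen with earlier results of these data known. Regions are named by rule: per cultivar the 5 members of highest mean fold, the 3 farthest from a wider region, the 3 with the largest fold ratio between replicates, regions on either side of 600 bp, and the 3 bins with most members. Alternatives were other width limits, a stricter q, no H3K27me3 filter, other merging, overlap, distances and bins, and each library left out. Chosen after seeing the data were detection by the summit, replicate pairs as units, single-library lists for the fold ratio and the cultivar ratio, summit reads in place of fold, incomplete bins kept, and members near a wider region left out.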

Additional observations from a re-analysis of the deposited data

Results flagged for a closer look

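In single libraries the share of narrow H3K4me3 peaks that overlapped H3K27me3, divided by that of wider peaks, moved in opposite ways in the cultivars. It was 0.930 and 0.995 in the IR64 replicates, with a mean of 0.962, and 1.17 and 1.16 in Azucena, with a mean of 1.16. The difference was not tested. Among reproducible regions the IR64 shares were 17.3% for narrow and 16.3% for wider regions, so the IR64 direction differed between peaks and regions.

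The unplaced contigs of Azucena, which no comparison used, held 18 H3K4me3 peaks under 600 bp of 25 in replicate 1 and 40 of 50 in replicate 2.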

How the results depend on the processing

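Of 157 recomputed values of 11 results, 106 stayed within the limits set and 51 moved. No tested difference changed direction. The 106 include every value of detection and of the cultivar ratios. Their exact permutation p cannot fall below 0.125 for detection and 0.333 for the ratios. A limit set on p could therefore not be crossed without a change of direction. The cultivar ratio of narrow-peak shares went from 1.21 to 1.08 with no H3K27me3 filter and was still counted as staying. For these results the count says little on stability. With a width limit of 500 bp the members numbered 1782 in IR64 and 1307 in Azucena, and with 700 bp 5342 and 4300; a stricter q, at 5 or more on the −log10 scale, left 2115 and 1733. The share within 1000 bp of a wider region (18.6% in IR64 and 15.8% in Azucena) was 21.7% and 19.0% at 500 bp of width, 15.3% and 12.6% at 700 bp, 13.5% and 12.002% at the stricter q, and 15.3% and 13.1% with a reciprocal overlap of 50%. It was 14.3% in Azucena with no H3K27me3 filter, and 11.4% and 8.95% with peaks up to 500 bp apart merged, which joins close neighbours by construction. Within 500 bp it was 9.31% and 8.23%, within 2000 bp 32.1% and 27.8%, and from summit to summit 3.88% and 3.47%. The ratio of median folds (0.800 in IR64 and 0.797 in Azucena) was 0.860 and 0.843 at the stricter q and 0.775 and 0.762 for summit reads; in Azucena it was 0.785 at 500 bp, 0.810 at 700 bp, 0.807 with no H3K27me3 filter, 0.797 with distant peaks merged and 0.782 with reciprocal overlap. The sparse to dense ratio of members (0.889 in IR64 and 1.08 in Azucena) was 1.03 in IR64 at 500 bp and 1.05 with no H3K27me3 filter. It was 1.01 and 1.25 with bins ranked by wider regions, and 0.973 and 0.990 with bins of 2 Mb. The member ratio so lay on both sides of 1 in each cultivar, and the cause was not tested. Single-library narrow peaks, a different unit, gave 0.783 in IR64 with bins ranked by replicate 1 and 0.923 in Azucena with bins ranked by replicate 2.

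Leaving out 1 library at a time gave 3494 to 9522 regions or peaks in IR64 and 2679 to 7026 in Azucena, the high ends being single-library lists of narrow peaks, where the demand for a peak in both replicates is dropped by construction. For the fold ratio, detection and the cultivar ratio of median folds, an H3K4me3 library was left out only as a source of values: members were still defined by both replicates, and the library still served as the partner. The fold ratio then ran from 0.790 to 0.811 and from 0.797 to 0.798; with the peaks of the other replicate alone, an alternative added after seeing the data, it was 0.721 to 0.748 and 0.726 to 0.743. The share within 1000 bp ran from 18.5% to 19.1% and from 14.9% to 16.5%, and the sparse to dense ratio from 0.770 to 0.904 and from 0.929 to 1.08. With an H3K4me3 library left out, both were read from single-library narrow peaks, which gave the low ends of the sparse to dense ratio. The detection difference ran from −27.1 to −23.9 points, and with a replicate pair dropped, also added later, from −26.9 to −24.3, and the ratio of IR64 to Azucena from 0.931 to 0.953 for the median fold of members, from 0.923 to 0.952 for that of single-library narrow peaks (0.937 with all libraries, added later) and from 1.18 to 1.25 for the share of narrow peaks. The replicate numbers are bare numbers in the titles. With the replicate number as a block, the cultivar ratios were 0.942 and 1.21 with an exact permutation p of 0.5, the smallest that 2 pairs allow. At medians of 33 to 38 summit reads, small differences of fold between members cannot be resolved.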
